A study of Mus musculus with 6 samples.

Results

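Transcripts of the insulin-like growth factor (IGF) system were measured in C57Bl/6 mouse soleus after hindlimb suspension, which takes the load off this slow calf muscle. The set comprised the ligands Igf1 and Igf2, the receptor Igf1r and the binding proteins Igfbp1 to Igfbp6, chosen by their annotated gene symbols. These 9 of 203 named genes had 10 of the 223 probes on the array, because Igf1 had 2. The sample titles mark the mice as wt, the label of each array says that the animal had been suspended, and each array took 3 microgram of total RNA from muscle cryosections. The labels hold 6 arrays numbered 1 to 6, all of this group, and state neither age nor that each array came from a separate animal. Spread between arrays, and every p-value below, may therefore be partly technical. No unsuspended animals were analysed here, so the values are levels in unloaded muscle and their differences between arrays, with no comparison of conditions.

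IGF1 and IGF2 are small secreted ligands that signal through the receptor tyrosine kinase encoded by Igf1r, and in muscle this signal promotes fibre growth and the differentiation of myogenic cells. The binding proteins hold the ligands in extracellular fluid or matrix and set how much of them reaches the receptor. Muscle makes its own IGF1 besides receiving the circulating form from liver.

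The deposited values are linear, background-subtracted intensities in arbitrary units, written to 4 decimals. A value at or below 0 was taken as not detected. Levels are log2 intensities minus the array median over the 171 probes above 0 on all 6 arrays, so 0 is the median of an array and 1 unit is a factor of 2. The level of one probe says nothing about that of another, and probes are compared only in how they differ between arrays. Replicate 1 stood apart: its intensities summed to 37.5, against 15.3 to 18.5 on the other 5 arrays, and its correlation with each of them over the 171 probes was between 0.86 and 0.91. All 6 probed muscle fibre markers (Myh7, Myh2, Myh1, Myh4, Mb and Des) were above 0 on every array, as were all 5 of the endothelium (Pecam1, Cdh5, Kdr, Tek and Flt1) and both of fat (Fabp4 and Pparg). Of the 3 myogenic cell markers probed, Myod1 and Myog were above 0 on every array and Myf5 on 4. The 2 immune genes probed, Il6 and Il1b, were each above 0 on 2 arrays. Each of these bulk values mixes the cell types of the muscle, and fewer cells of a type cannot be told apart from less RNA per cell.

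Both ligands and all 6 binding proteins gave a signal on every array, and the receptor did not. Of the 10 probes, 9 exceeded 0 on all arrays, all but that of Igf1r, against 76.7% of all 223 probes. A stricter reading set a noise limit for each array, equal in size to its most negative value and lying between 0.0005 and 0.0020, that a value had to exceed. By that reading 6 of the 10 probes were detected on all arrays, namely both Igf1 probes, Igf2, Igfbp4, Igfbp5 and Igfbp6, against 60.1% of all probes.

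**Figure D1:**
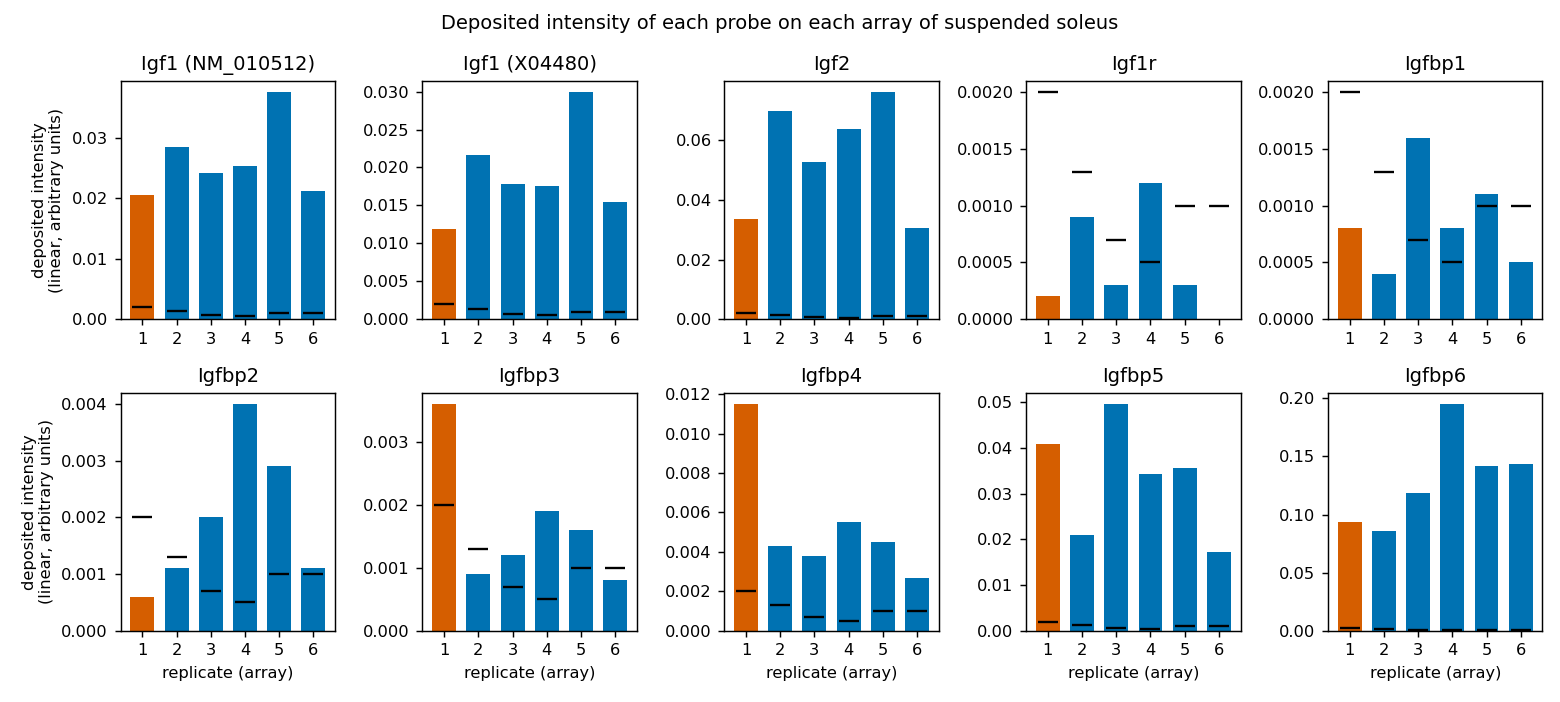
Deposited intensity (linear, arbitrary units, vertical axes from 0 and scaled to each probe) of the 10 probes on the 6 arrays; bars are single arrays, orange marks replicate 1, and black ticks give each array's noise limit. Igf1r, Igfbp1, Igfbp2 and Igfbp3 have bars below their ticks on 2 or more arrays, whereas the other 6 probes clear them on every array.

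The transcript of the ligand IGF1 was detected by both of its probes, whose levels put the 6 arrays in the same order. In deposited intensity the 2 probes ordered replicates 3 and 4 differently. The probe annotated with GenBank record NM_010512 had deposited intensities of 0.0205, 0.0285, 0.0241, 0.0254, 0.0375 and 0.0212 on replicates 1 to 6. The probe annotated with X04480 gave 0.0119, 0.0217, 0.0178, 0.0176, 0.0299 and 0.0155 on the same arrays. Replicate 5 was the highest and replicate 1 the lowest for both probes. Levels averaged 1.59 ± 0.47 (SD, n = 6) for the NM_010512 probe and 1.11 ± 0.63 for the X04480 probe. The levels of the 2 probes correlated at 0.997 (Pearson, n = 6 arrays, exact permutation p = 0.0014, the smallest that 720 pairings can give, two-sided), with a Spearman correlation of 1 (exact p = 0.0028, the smallest it can give). Without replicates 1 and 5, the 2 arrays farthest from the median, the Pearson correlation was 0.996.

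The NM_010512 probe was 1.72 times as bright as the X04480 probe on replicate 1 and between 1.25 and 1.44 times as bright on the other arrays. This ratio is unaffected by any scaling of whole arrays. Its SD on the log2 scale was 0.16, and 0.07 without replicate 1. Of the 14535 pairs of measured probes, 97 had a smaller SD of their log2 ratio, and the median over all pairs was 0.73.

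Igf2, the ligand of fetal growth that is re-expressed by differentiating myogenic cells, was measured on every array. Its deposited intensities were 0.0336, 0.0697, 0.0526, 0.0639, 0.0761 and 0.0305 on replicates 1 to 6, and its level averaged 2.59 ± 0.63 (SD, n = 6). Replicates 2 and 5 were nearly equal and highest in level, at 3.22 and 3.21, and replicate 1 was lowest at 1.55. The levels of Igf2 and of the X04480 probe of Igf1 correlated at 0.88 (Pearson, exact permutation p = 0.025, adjusted over 35 pairs 0.30) and 0.71 (Spearman, exact p = 0.14, adjusted 0.95). With the NM_010512 probe the Pearson correlation was 0.87 (exact permutation p = 0.028, adjusted 0.30) and the Spearman correlation again 0.71. Without replicates 1 and 5, r fell to 0.43 and 0.42 for the 2 Igf1 probes, and without replicate 1 alone it was 0.65 for each. Replicates 1 and 5 were the arrays farthest from the median of Igf1, and leaving them out narrows its range. The fall in r therefore cannot show how far the relation rested on them. The relation did not pass the adjusted threshold.

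The receptor Igf1r, which transmits the signal of both ligands, was at background on nearly every array. Its deposited values were 0.0002, 0.0009, 0.0003, 0.0012, 0.0003 and 0.0000 on replicates 1 to 6. It was above 0 on 5 of 6 arrays and exceeded the noise limit on replicate 4 only. No level or SD is given for it, since these values are at most 12 steps of the last printed decimal.

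Among the binding proteins, Igfbp4, Igfbp5 and Igfbp6 lay clear of background. Igfbp6, which binds IGF2 in preference to IGF1, had deposited intensities of 0.0935, 0.0855, 0.1188, 0.1951, 0.1418 and 0.1435 and a level of 3.87 ± 0.54 (SD, n = 6). Its level was highest on replicate 6 (4.46) and replicate 4 (4.32) and lowest on replicate 1 (3.02). Igfbp5, the binding protein most abundant in bone and much studied in muscle differentiation, had intensities of 0.0409, 0.0209, 0.0496, 0.0343, 0.0355 and 0.0173 and a level of 1.87 ± 0.43. Replicate 3 was its highest array, and replicates 6 and 2 were the lowest. Igfbp4, which mainly restrains IGF action and is cleaved by the protease PAPP-A, had intensities of 0.0115, 0.0043, 0.0038, 0.0055, 0.0045 and 0.0027 and a level of -0.82 ± 0.44. The value of 0.0115 on replicate 1 was the highest for Igfbp4, and the other 5 arrays did not exceed 0.0055. Without replicate 1 the SD of Igfbp4 was 0.21.

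Igfbp3, the main carrier of IGF in blood, was near background, with intensities of 0.0036, 0.0009, 0.0012, 0.0019, 0.0016 and 0.0008. It exceeded the noise limit on 4 arrays, and its level was -2.55 ± 0.53 (SD, n = 6). Replicate 1 was its highest array, as for Igfbp4. Igfbp2, a binding protein prominent in fetal tissue, had intensities of 0.0006, 0.0011, 0.0020, 0.0040, 0.0029 and 0.0011 and exceeded that limit on 4 arrays. Its level was -2.41 ± 1.07, and -2.04 ± 0.64 (n = 5) without replicate 1. Igfbp1, an insulin-regulated product chiefly of liver, had intensities of 0.0008, 0.0004, 0.0016, 0.0008, 0.0011 and 0.0005. It exceeded the noise limit on 3 arrays, and its level of -3.45 ± 0.67 rests on values of 4 to 16 steps of the last printed decimal.

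The spread of these transcripts between arrays was of the order of that of the array as a whole. The median SD of the 9 measured probes was 0.54, against 0.48 over all 171 measured probes. Of the 9 probes, 3 had an SD below 0.5 (Igfbp5, Igfbp4 and the NM_010512 probe of Igf1), against 52.0% of all measured probes. Igfbp2 was at the 91.2 percentile of SD among all measured probes, and the other 8 lay between the 42.1 and the 72.5 percentile. Without replicate 1 the medians were 0.40 for the 9 probes and 0.34 for all. With the arrays scaled to equal totals the median SD of the 9 probes was 0.78, whereas that of all probes was 0.47.

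**Figure D2:**
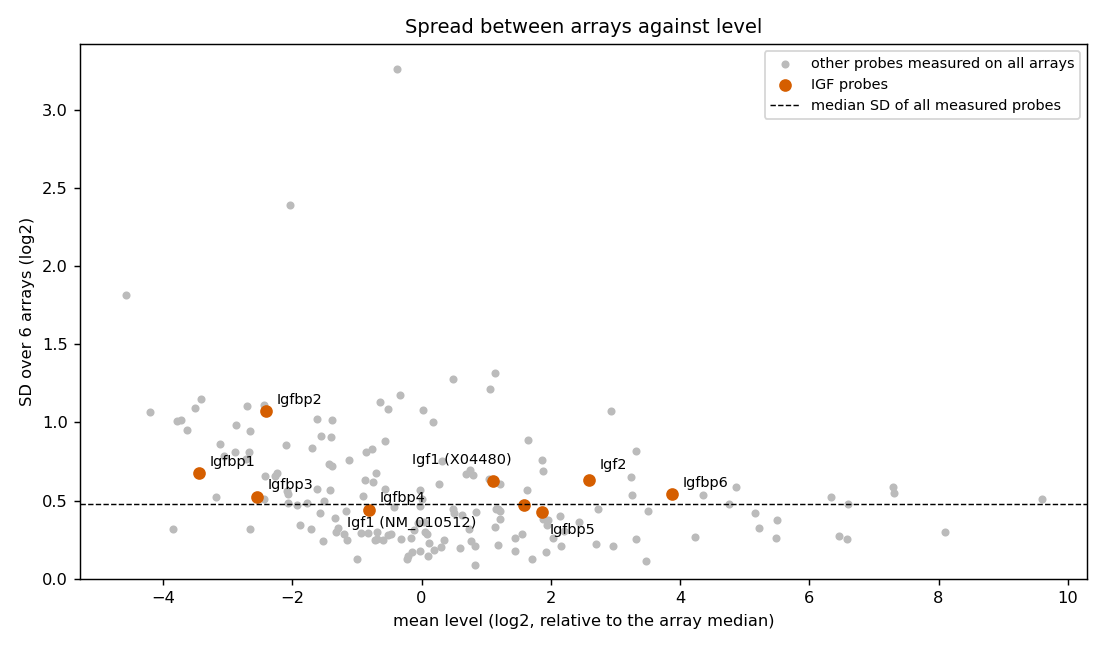
SD over the 6 arrays (log2, vertical) against mean level (log2 relative to the array median, horizontal) for each probe measured on all arrays; orange points are the 9 measured IGF probes, grey points the other probes, and the dashed line the median SD of 0.48. Igfbp2 has the highest SD of the orange points, at 1.07, and the others lie between 0.43 and 0.67.

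On replicate 1 the set split: both ligands, Igfbp2 and Igfbp6 were low, Igfbp3 and Igfbp4 were high, and Igfbp1 and Igfbp5 lay within the range of the other arrays. Replicate 1 differed from the mean of the other arrays by -0.91 and -1.27 for the NM_010512 and X04480 probes of Igf1, by -1.26 for Igf2, by -1.02 for Igfbp6 and by -2.22 for Igfbp2, in log2 units. It differed by 1.05 for Igfbp3 and 0.98 for Igfbp4, and by -0.04 for Igfbp5 and -0.48 for Igfbp1. On replicate 1 Igfbp2 (0.0006) and Igfbp1 (0.0008) were under the noise limit of 0.0020, so their differences rest on background values. Igfbp3 was under the limit on replicates 2 and 6, so the mean that its replicate 1 is set against includes background values. Replicate 1 was the lowest of the 6 arrays for 5 of the 9 probes, against 28.1% of all measured probes, and the highest for 2, against 39.2%.

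The signs for Igf1, Igf2, Igfbp2, Igfbp3, Igfbp4 and Igfbp6 were the same with median centring, no centring, equal totals, quantile normalization and a pseudocount of 0.002. Taken over all measured probes, the median difference of replicate 1 was 0.13 with median centring, 0.65 without centring, -0.45 with equal totals and 0.07 with quantile normalization. Relative to that median, under median centring, no centring and equal totals alike, replicate 1 differed by -1.04 and -1.39 for the Igf1 probes, -1.38 for Igf2, -1.15 for Igfbp6, -2.35 for Igfbp2, 0.92 for Igfbp3, 0.86 for Igfbp4, -0.60 for Igfbp1 and -0.17 for Igfbp5. These settings differ only by a constant for each array, which cancels here, so their agreement was fixed in advance. With quantile normalization the relative difference of Igfbp1 was -0.21, and with the pseudocount those of Igfbp3 and Igfbp2 were 0.31 and -1.12. Without centring replicate 1 was no longer the lowest array for Igf2 and Igfbp6, and the differences of Igfbp5 and Igfbp1 became 0.48 and 0.04. With equal totals it was not the highest for Igfbp3, and it became the lowest for Igfbp1 and Igfbp5. With the pseudocount it was the lowest for Igfbp1, and Igfbp5 had a difference of 0.02. Other transcripts moved on the same array. The summed intensity of the 6 muscle fibre markers was 6.61 on replicate 1 and 2.29 to 3.01 on the others, that of the 2 fat markers 0.0903 against 0.0281 to 0.0477, that of the 2 fibroblast and matrix genes probed (Fn1 with 2 probes, and Pdgfra) 0.0365 against 0.0130 to 0.0218, and that of the 5 endothelial markers 0.0711 against 0.0698 to 0.0871. These sums are not centred, and the total of replicate 1 was itself the highest. In centred levels, replicate 1 differed from the mean of the others by -2.60 for Flt1, -0.63 for Pecam1, -0.57 for Cdh5, -0.12 for Kdr and 0.14 for Tek of the endothelium. The differences of the 6 fibre markers ran from 0.46 (Mb) to 1.85 (Myh2), and those of Fabp4 and Pparg were 0.88 and -0.01. For the myogenic cell markers Myod1 and Myog they were -0.02 and -0.35. The part of these in the split was not tested.

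**Figure D3:**
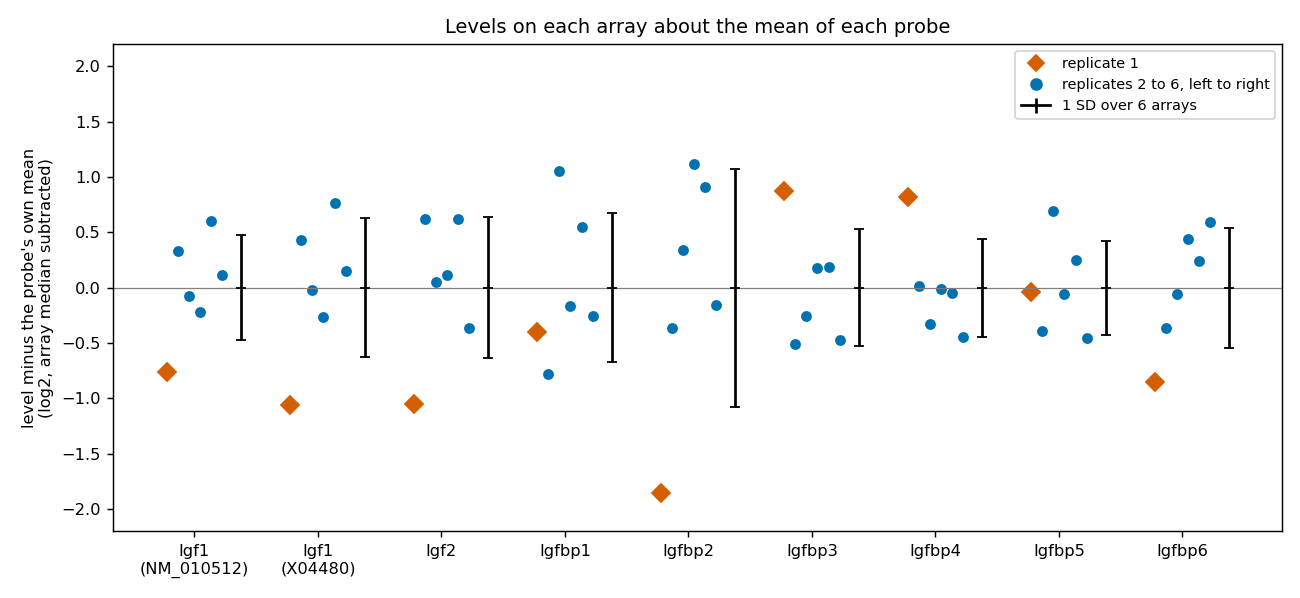
Level on each array minus the probe's own mean (log2, array median subtracted) for the 9 measured probes; orange diamonds are replicate 1, blue points replicates 2 to 6 from left to right, and black bars 1 SD over the 6 arrays. Replicate 1 lies below every other array for Igf1, Igf2, Igfbp2 and Igfbp6 and above every other array for Igfbp3 and Igfbp4.

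Ratios of probes within an array show the same split with no scaling at all. They follow from the same values as the levels above and are no separate support for the split. The ratio is one of probe intensities, not of transcript amounts, and only its differences between arrays are read. The NM_010512 probe of Igf1 was 1.78 times as bright as Igfbp4 on replicate 1 and between 4.62 and 8.33 times as bright on the other arrays. Igf2 was 2.92 times as bright as Igfbp4 on replicate 1, against 11.3 to 16.9 times on the others, a log2 difference of -2.24 from their mean. Igf2 over Igfbp3 was 9.33 on replicate 1 and 33.6 to 77.4 on the others. Igfbp2 over Igfbp3 was 0.167 on replicate 1 and 1.22 to 2.11 on the others. Both ratios to Igfbp3 include background values, since Igfbp3 was under the noise limit on replicates 2 and 6. In the last ratio Igfbp2 was also under it, on replicates 1 and 2.

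All 10 ratios of an Igf1 probe, Igf2, Igfbp2 or Igfbp6 to Igfbp3 or Igfbp4 were lowest on replicate 1. These pairs were picked after the values had been seen, which fixes their direction. Over all 14535 pairs of measured probes, replicate 1 lay outside the range of the other arrays in 65.9%. By contrast the ratio of Igfbp3 to Igfbp4 was 0.313 on replicate 1, within the range of 0.209 to 0.356 on the other arrays. The lowest, 0.209, was on replicate 2, where Igfbp3 was under the noise limit.

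**Figure D4:**
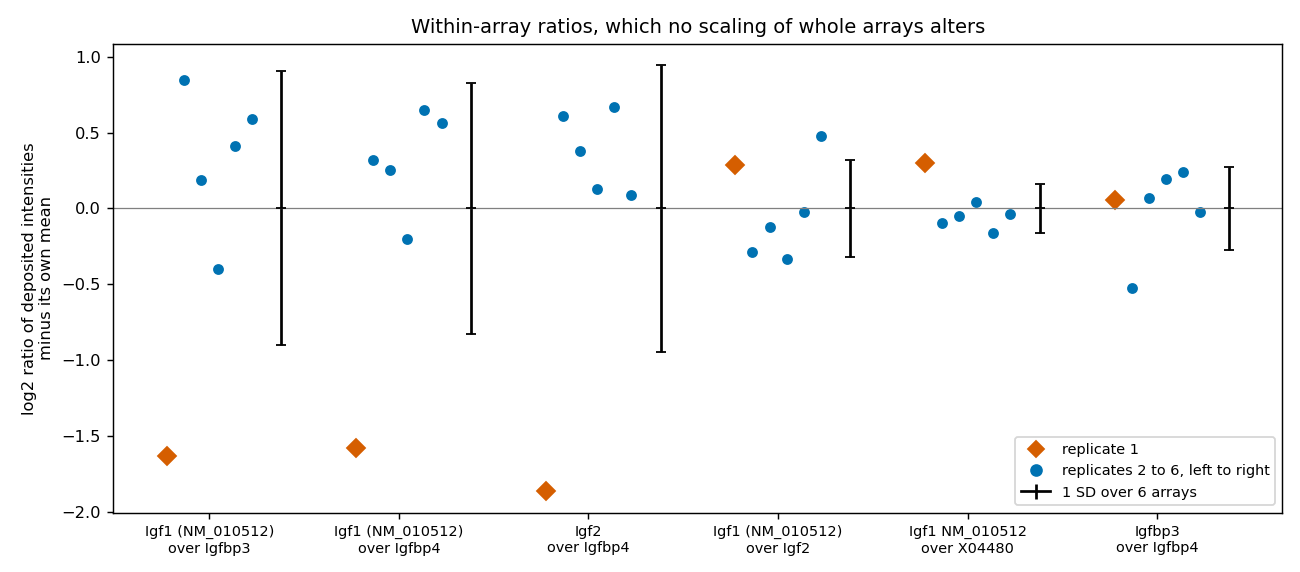
Log2 ratio of deposited intensities within each array, minus the mean of that ratio over the 6 arrays, for 6 pairs of probes; orange diamonds are replicate 1, blue points replicates 2 to 6 from left to right, and black bars 1 SD over the 6 arrays. Replicate 1 is lowest for both ligands over Igfbp3 or Igfbp4, and lies within the other arrays for Igf1 over Igf2 and for Igfbp3 over Igfbp4.

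No pair of members of different genes passed the adjusted threshold of 0.05 in a test of whether their levels varied together. Among the 35 pairs, in which each Igf1 probe counts once, 5 had an unadjusted exact permutation p under 0.05 by Pearson correlation (14.3%, against 11.7% of all pairs of measured probes) and 0 by Spearman correlation. Of the 5, 4 were positive, against 5.99% of all pairs that had such a p and were positive, and 1 was negative, against 5.69%. The lowest adjusted p was 0.30 by Pearson and 0.95 by Spearman correlation (exact permutation). Positive correlations were 19 of the 35, against 50.9% of all pairs of measured probes. Without replicate 1, 2 of the 35 pairs had an unadjusted p under 0.05, against 5.47% of all pairs. These were Igfbp1 with Igfbp5 and Igfbp2 with Igfbp3. Igfbp2 and Igfbp3 correlated at 0.98 without replicate 1 (Pearson over 5 arrays, exact permutation p = 0.017), a pair singled out after its values were seen. With all 6 arrays the same pair had -0.38 (exact permutation p = 0.45, adjusted 0.72) and, by Spearman, 0.09 (exact p = 0.92, adjusted 1.0), and without replicates 1 and 4 it had 0.98. Of these probes, Igfbp2 was under the noise limit on replicates 1 and 2, and Igfbp3 on replicates 2 and 6.

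Igfbp1 and Igfbp5 had the highest correlation between genes of the set, at 0.91 (Pearson, exact permutation p = 0.017, adjusted 0.30) and 0.71 (Spearman, exact p = 0.14, adjusted 0.95). It was 0.94 without replicate 1 and 0.38 without replicates 3 and 5, the arrays farthest from the median of Igfbp1, whose signal was at background on 3 arrays. The SD of their log2 ratio was 0.33. Igfbp3 and Igfbp4 correlated at 0.85 (Pearson, exact permutation p = 0.042, adjusted 0.30) but at 0.37 by Spearman (exact p = 0.50, adjusted 0.97). Their r was 0.47 without replicate 1 and 0.997 without replicates 1 and 2, over 4 arrays, and the SD of their log2 ratio, 0.28, was the smallest between genes of the set. Igfbp4 and Igfbp6 correlated at -0.81 (Pearson, exact permutation p = 0.047, adjusted 0.30) and -0.77 (Spearman, exact p = 0.10, adjusted 0.95), with r of -0.41 without replicate 1 and 0.11 without replicates 1 and 6.

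**Figure D5:**
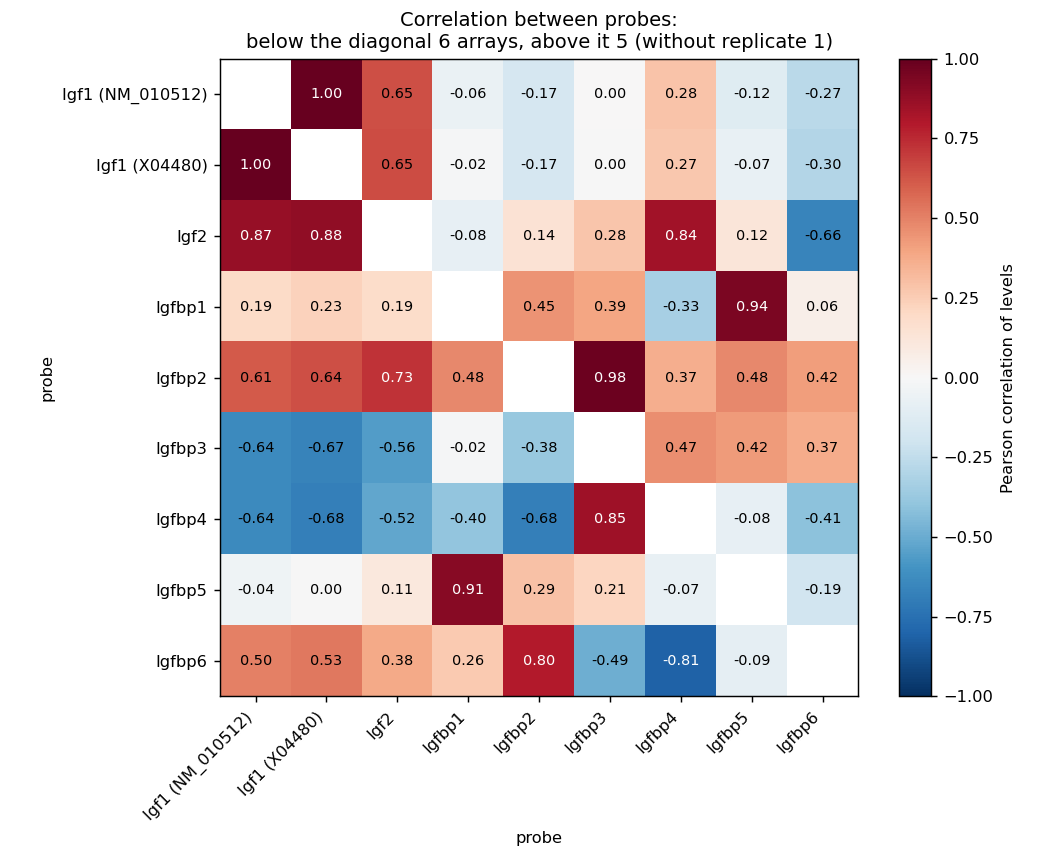
Pearson correlation of levels between each pair of the 9 measured probes, over 6 arrays below the diagonal and over 5 arrays, without replicate 1, above it; both axes list the probes, and the colour runs from -1 (blue) to 1 (red). The 2 Igf1 probes correlate in both parts of the matrix, as do Igfbp1 and Igfbp5 (0.91 and 0.94), whereas the correlations of the ligands with Igfbp3 and Igfbp4 lie between -0.68 and -0.52 with replicate 1 and range up to 0.84 without it.

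Some of the binding protein genes are neighbours in the mouse genome. In the RefSeq gene table of assembly GRCm38.p6, Igfbp1 and Igfbp3 lie on chromosome 11 and Igfbp2 and Igfbp5 on chromosome 1, in each case with 0 annotated genes between them. Neither pair of neighbours passed the test. The Pearson correlation was -0.02 for Igfbp1 and Igfbp3 (exact permutation p = 0.97, adjusted 0.99) and 0.29 for Igfbp2 and Igfbp5 (exact permutation p = 0.57, adjusted 0.83). By Spearman correlation both pairs had 0.26 (exact p = 0.66, adjusted 1.0). Without the 2 arrays farthest from the median, r was 0.32 for Igfbp1 and Igfbp3 and 0.70 for Igfbp2 and Igfbp5.

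The regions upstream of Igfbp1 and Igfbp5 are shown because these genes had the highest correlation, and that of Igfbp6 because it lay clear of background on every array and its window holds more of the motifs. Each is the 250 bases before the gene's start in RefSeq, assembly GRCm38.p6, written 5′ to 3′ on the strand of the gene, with capitals marking matches on either strand to the motifs named below. Igfbp1 lies at chr11:7197537-7197786 on the plus strand, Igfbp5 at chr1:72874866-72875115 on the minus strand and Igfbp6 at chr15:102143936-102144185 on the plus strand.
Igfbp1: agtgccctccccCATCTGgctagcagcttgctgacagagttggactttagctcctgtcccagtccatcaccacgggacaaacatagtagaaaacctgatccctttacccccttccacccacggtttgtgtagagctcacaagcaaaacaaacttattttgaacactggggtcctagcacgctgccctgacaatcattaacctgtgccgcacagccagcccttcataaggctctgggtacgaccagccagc
Igfbp5: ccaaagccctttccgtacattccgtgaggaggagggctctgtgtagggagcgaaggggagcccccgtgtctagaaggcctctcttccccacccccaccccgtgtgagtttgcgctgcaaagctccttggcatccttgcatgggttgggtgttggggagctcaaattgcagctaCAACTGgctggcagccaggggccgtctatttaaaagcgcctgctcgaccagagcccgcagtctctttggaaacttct
Igfbp6: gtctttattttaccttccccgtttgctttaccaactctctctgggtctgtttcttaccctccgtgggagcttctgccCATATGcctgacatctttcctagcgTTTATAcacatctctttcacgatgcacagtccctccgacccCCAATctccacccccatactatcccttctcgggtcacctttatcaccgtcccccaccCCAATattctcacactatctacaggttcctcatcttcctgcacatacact

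Each motif was searched on both strands. The TATA box, which positions the start of transcription, was searched as TATAAA. The GC box, a site of Sp factors, was searched as GGGCGG. The CCAAT box was searched by its own letters, and the site of forkhead factors, which insulin and IGF signalling inactivates, as TGTTTAC. The E-box, a site of myogenic regulators among others, was searched as CANNTG. No matches overlapped in the windows printed. Igfbp1 and Igfbp5 each held 1 E-box and 0 matches to the other motifs. Igfbp6 held 1 TATA box match, on the opposite strand, 2 CCAAT boxes and 1 E-box. Of 32851 such windows in the RefSeq table, 66.2% held an E-box, 33.8% a CCAAT box, 32.7% a GC box, 12.4% a TATA box and 3.17% the forkhead letters. The windows of Igfbp1, Igfbp5 and Igfbp6 contained 53.2%, 58.8% and 49.6% G and C, against a median of 52.4% over all windows. Over the 13 windows of the 9 members, 9 held an E-box, 4 a GC box, 3 a CCAAT box, 2 a TATA box and 0 the forkhead letters. Besides Igfbp6, the window with a TATA box was that of Igfbp4, where the match lay on the gene's strand at position -28 from the start. A match is a description of letters, not a binding site. Only the letters given were searched, so a lack of matches does not show that a site is absent.

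For each measured probe, the 2 probes of other genes whose log2 ratio to it varied least between arrays were found, a measure that no scaling alters. For the NM_010512 probe of Igf1 these were Pecam1, an adhesion molecule of endothelium (SD of the log2 ratio 0.21), and Itga8, an integrin subunit (0.26), against a median of 0.69 over 158 probes of other genes. For the X04480 probe they were Igf2 (0.30) and the 28S ribosomal RNA (0.31), against a median of 0.80. For Igf2 they were Itga8 (0.22) and the X04480 probe of Igf1 (0.30), against a median of 0.83. Itga8 was thus near to Igf2 and to the NM_010512 probe, and was not among the nearest 2 of the X04480 probe.

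Each binding protein had its own nearest probes. Igfbp6 varied most like Angpt2, an angiopoietin (0.15), and Gip, an incretin hormone (0.18). Igfbp4 varied most like Vegfb (0.19) and the fast myosin heavy chain Myh1 (0.20), and Igfbp3 like desmin (Des, 0.24) and Fgfr2 (0.27). For these the medians over 159 probes of other genes were 0.73, 0.58 and 0.65. Igfbp5 was nearest to the platelet-derived growth factor receptor Pdgfrb (0.28) and follistatin (Fst, 0.33), with a median of 0.64. Igfbp1 was nearest to Igfbp5 (0.33) and the laminin chain Lama2 (0.48), and Igfbp2 to the cytokine receptor Csf2rb2 (0.41) and the vascular growth factor Vegfd (0.50), with medians of 0.85 and 1.18. These are the smallest of many values and are given as a description.

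Of 78 other genes of the pathway that were listed, 15 were on the array and 12 were measured on every array, with a median SD of 0.41 against 0.48 over all measured probes. The order turned with quantile normalization (0.53 against 0.45), without centring (0.59 against 0.57) and, by little, with the pseudocount (0.3327 against 0.3318). The receptor Igf2r, which clears IGF2, had deposited intensities of 0.0170, 0.0065, 0.0083, 0.0091, 0.0079 and 0.0045 on replicates 1 to 6 and a level of -0.06 ± 0.36 (SD, n = 6). Replicate 1 was its highest array and replicate 6 its lowest. The insulin receptor Insr was near background, with intensities between 0.0005 and 0.0034 (median 0.0015), above the noise limit on 3 arrays and with a level of -2.69 ± 1.11. The glucose transporter Slc2a4, which insulin signalling brings to the cell surface, was the only gene of the signalling group on the array, at 1.94 ± 0.34.

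Of 7 probed proteases that can cleave binding proteins, 4 were measured on every array. Mmp14 was at -0.68 ± 0.25, Plau at -1.34 ± 0.39 and Mmp2 at -1.51 ± 0.50 (SD, n = 6 each). Plat was near background at -3.51 ± 1.09, with 0.0038 on replicate 1 and 0.0003 to 0.0011 on the others. It exceeded the noise limit on 2 arrays. Plg was above 0 on 5 arrays, Mmp9 on 4 and Mmp3 on 2. Of the matrix and surface partners, Itgb1 was at 1.95 ± 0.38, one Fn1 probe at 0.84 ± 0.43, Tnc at 0.68 ± 0.67, Thbs1 at -0.03 ± 0.57 and Itgav at -2.65 ± 0.32. Itgav exceeded the noise limit on 4 arrays. The second Fn1 probe was above 0 on 1 array, so the 2 probes of fibronectin did not give the same answer, unlike those of Igf1. In log2 units replicate 1 differed from the mean of the others by 1.24 for Thbs1 and -1.40 for Tnc.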

How the data were processed

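Transcripts were measured on 6 arrays of suspended soleus. The deposited table holds 1 linear intensity per probe and array, background-subtracted by the authors per the values of the file; for the array maker, the background method and the scaling reference the sources used here give nothing. Column medians were 0.0061, 0.0043, 0.0041, 0.0055, 0.0047 and 0.0036 on replicates 1 to 6; the values are linear, and the reference of their scale stays unknown. Gene names come from GEO's annotation of the platform, in which 205 of 223 probes have 1 symbol and the others none here. Probes above 0 on all arrays were log2-transformed with no pseudocount and centred on the array median (Python 3.11.15, NumPy 2.4.6, pandas 2.3.3). Correlations were tested two-sided by exact permutation of the arrays, with Benjamini-Hochberg adjustment over 35 pairs at 0.05; the test was tested on simulated data. The alternatives were no centring, equal totals, quantile normalization, a floor in place of the filter, a pseudocount of 0.002, a filter at the 25th percentile of level, Spearman correlation and each array left out. Named were all members, the 2 probes nearest to each, and the 6 brightest probed genes of each pathway role, plus the seventh protease, Mmp3, outside that rule. The 16th pathway probe is the second of Fn1. Members and lists were chosen with earlier results of these data known. The number of arrays limits the precision.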

Additional observations from a re-analysis of the deposited data

Results flagged for a closer look

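A result appears here when the highest or lowest of the 6 arrays lies farther from its neighbour, as a share of the whole range, than Dixon's critical ratio for 6 samples, which chance gives in about 1 group in 20. In level, 15.8% of the measured probes of the array met this. Among the 9 member levels it was met by Igfbp4, with a ratio of 0.633 and replicate 1 highest. Among the 36 log2 ratios between member probes it was met by 4, against 15.3% of the ratios of all 14535 pairs of measured probes. Replicate 1 was lowest for Igf2 over Igfbp4 (0.770) and for Igfbp2 over Igfbp3 (0.786) and highest for Igfbp3 over Igfbp6 (0.635), and replicate 2 was lowest for Igfbp3 over Igfbp4 (0.656). The value of Igfbp2 on replicate 1 was under the noise limit, as was that of Igfbp3 on replicate 2. Of the 12 other pathway probes it was met by Itgb1 (0.693), again highest on replicate 1. The sum of intensities of replicate 1 also met it (0.855).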

How the results depend on the processing

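The median SD of the 9 member probes was 0.54, moved to 0.78 with equal totals, and was 0.42 to 0.58 under the other scalings and filters and 0.40 to 0.58 with each array left out. The levels moved by over 1 SD for 8 of the 9 probes with the floor in place of the filter, which lowers each array's median (Igfbp4 went from -0.82 to 0.05), and for Igfbp1 (-3.45 to -1.89) and Igfbp3 (-2.55 to -1.56) with the pseudocount. The pseudocount took the SDs of Igfbp1, Igfbp2 and Igfbp3 from 0.67, 1.07 and 0.53 to 0.27, 0.50 and 0.16. Igfbp2 then no longer had the widest SD of the 9 (Igf2 had 0.59), nor did it without replicate 1 (0.64 against 0.72 for Igfbp1). The correlation of the 2 Igf1 probes kept its sign and stayed past the threshold under each alternative run, between 0.95 (quantile normalization, exact p = 0.0056) and 1, and 0.997 to 0.999 with each array left out. No pair of members passed the adjusted threshold under any alternative, and the unadjusted counts ran from 0 to 5. The median SD of the pathway probes ran from 0.33 to 0.59, and was 0.33 to 0.45 with each array left out. The count of detected member probes was 6 by the stricter limit and 10 without replicate 6, on which Igf1r was at 0. The filter at the 25th percentile of level left 6 of the 9 member probes. No paired analysis was possible because there is 1 group. Signal near background limits Igf1r, Igfbp1, Igfbp2 and Igfbp3.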

Other observations

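Ghr, the growth hormone receptor, through which growth hormone induces Igf1, is on no list above and was added after the member values had been seen. Its deposited intensities were 0.0271, 0.0208, 0.0256, 0.0231, 0.0231 and 0.0203 on replicates 1 to 6, and its level was 1.45 ± 0.18 (SD, n = 6). Replicates 1 and 4 were its lowest arrays in level, at 1.24 each, and the others ran from 1.47 to 1.64. In deposited intensity, before centring, replicate 1 was instead its highest array.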
